A study of Rattus norvegicus with 8 samples.

Results

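Cholesterol synthesis, uptake, efflux and their control by the SREBP transcription factors were described for 29 rat genes. They were taken from every probe whose gene name on the array was that of a listed pathway gene or another name for it. All 29 were measured and tested, of 16921 genes tested in all, and each of their probes used for the test was well above background on all 8 arrays. RNA came from N27 cells, an immortalised line of rat mesencephalic cells that the labels describe as dopamine producing. The 4 groups of 2 arrays each were control cells, cells given manganese (Mn, 150 µM for 48 h), cells given MPP+ (250 µM for 48 h), a known inhibitor of respiratory complex I, and cells labelled 3-NPA, taken here as 3-nitropropionic acid, which is known to block succinate dehydrogenase. The labels give no dose or time for 3-NPA, no vehicle for the control and no statement that the replicates were separate cultures, so p-values measure the spread between these arrays only. All groups were the same line on the same array slide, so every comparison is within 1 transformed cell line.

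Cholesterol is built from acetyl-CoA in a chain of enzymes that first makes mevalonate and isoprenoids, then joins them to squalene, closes squalene into the sterol lanosterol and trims lanosterol to cholesterol. When sterol in the endoplasmic reticulum is low, Scap carries the SREBP precursors to the Golgi, where proteases free the factors that switch on these enzymes and the receptors for lipoprotein uptake; when sterol is high, the Insig proteins hold Scap back. Oxysterols made in sterol-rich cells activate the liver X receptors, which raise the exporters Abca1 and Abcg1 and the ligase Mylip, which marks receptors of lipoprotein uptake for breakdown. In brain, cholesterol is made locally because plasma lipoproteins do not cross the blood-brain barrier.

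Across the 8 arrays from 32711 to 41354 spots were well above background, with both control arrays at the low end, and the log2 values of the 2 arrays of a group correlated at 0.990 to 0.997 over genes. The number of arrays limits the precision. The 2 arrays of 3-NPA were extracted by the software in the later of 2 runs, so that run and 3-NPA cannot be told apart. Of 6 dopaminergic markers on the array 5 were kept, with Th, Nr4a2 and Slc18a2 above background on 8 arrays and the transporter Slc6a3 on 0. Ddc and Pitx3, both dim in control, were at least 2.82-fold and 1.30-fold higher with 3-NPA. Pitx3 was also called higher with MPP+ (0.98), where the bound for dim probes shows no rise. Th, Nr4a2 and Slc18a2 passed in no comparison with control. Of 5 neuronal markers only Map2 and Tubb3 were kept, and Nefl, Snap25 and Syp were above background on 0 arrays. Of the fibroblast markers all 3 were kept, and their summed level ran from 0.735 to 0.789 in control, 1.096 to 1.163 with Mn, 0.334 to 0.370 with MPP+ and 1.42 to 1.43 with 3-NPA, in multiples of the 75th percentile of the array. That sum follows Col1a1, a collagen gene, which was higher with Mn (0.69) and 3-NPA (1.04) and lower with MPP+ (-1.06), although its other probe read -0.81 and -1.03 in control and -0.85 and -0.76 with Mn. Col3a1 fell with MPP+ (-1.90) and 3-NPA (-1.98), against the direction of Col1a1 with 3-NPA, and Pdgfra was dim in control and at least 1.42-fold higher with 3-NPA.

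The neuronal sum ran from 1.60 to 1.67 in control, 2.00 to 2.70 with Mn, 2.21 to 2.37 with MPP+ and 4.26 to 4.75 with 3-NPA. It follows Tubb3, a neuronal tubulin, which rose with Mn (0.76), MPP+ (0.72) and 3-NPA (1.77), while Map2 fell with 3-NPA (-0.80, adjusted p = 0.0349). The microglial sum was 0.260 to 0.357 in control, 0.350 to 0.358 with Mn, 0.201 to 0.215 with MPP+ and 0.450 to 0.453 with 3-NPA. Cd68 (1.26) and Itgam (0.52) rose with 3-NPA, Aif1 and Csf1r did not pass there, and Ptprc was above background on 0 arrays. The endothelial sum was 0.0448 to 0.0551 in control, 0.0307 to 0.0325 with Mn, 0.0285 to 0.0420 with MPP+ and 0.158 to 0.180 with 3-NPA. Kdr, dim in control, was at least 3.16-fold higher with 3-NPA, and Cldn5 was above background on 0 arrays. Pecam1, also dim in control, was called higher with 3-NPA (0.98), where its bound shows no rise, and lower with Mn (-0.60). The astrocyte marker Aldh1l1 rose with MPP+ (0.37) and 3-NPA (0.46), and Slc1a2 and S100b were above background on 0 arrays. The part of these marker changes in the results below was not tested.

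Levels below are log2 processed signal, with 0 at the 75th percentile of the array, and differences are log2 fold changes with their standard error from 1 limma fit over all 8 arrays and genes. A gene is said to have fallen or risen where its p, adjusted over all 16921 genes (Benjamini-Hochberg), was below 0.05. All 3 toxin groups were set against the same 2 control arrays, so these 3 comparisons are not independent of each other. Levels of different genes come from different probes and are not compared.

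Genes of cholesterol synthesis fell in all 3 toxin groups and none rose, while genes of lysosomal export and efflux fell, rose or did not pass the test depending on the toxin. With Mn, 13 of the 29 genes fell and 0 rose (2 had higher values at an unadjusted p below 0.05), where 7.65% of all genes tested were called, 3.15% as lower and 4.5% as higher. With MPP+, 21 fell and 0 rose (0 also at an unadjusted p below 0.05), where 14% of all genes were called, 6.48% as lower and 7.48% as higher. With 3-NPA, 17 fell and 2 rose, where 38.3% of all genes were called, 16% as lower and 22.3% as higher. In RNA of whole cultures, fewer cells of a kind and less RNA per cell cannot be told apart. The median log2 fold change of the 29 genes was -0.54 with Mn, -0.69 with MPP+ and -0.77 with 3-NPA, beside -0.02, 0.02 and 0.05 over all genes. The arrays of toxin and control did not overlap for 25 genes with Mn, 28 with MPP+ and 24 with 3-NPA, which held for 50.5%, 63.5% and 71.9% of all genes.

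**Figure D1:**
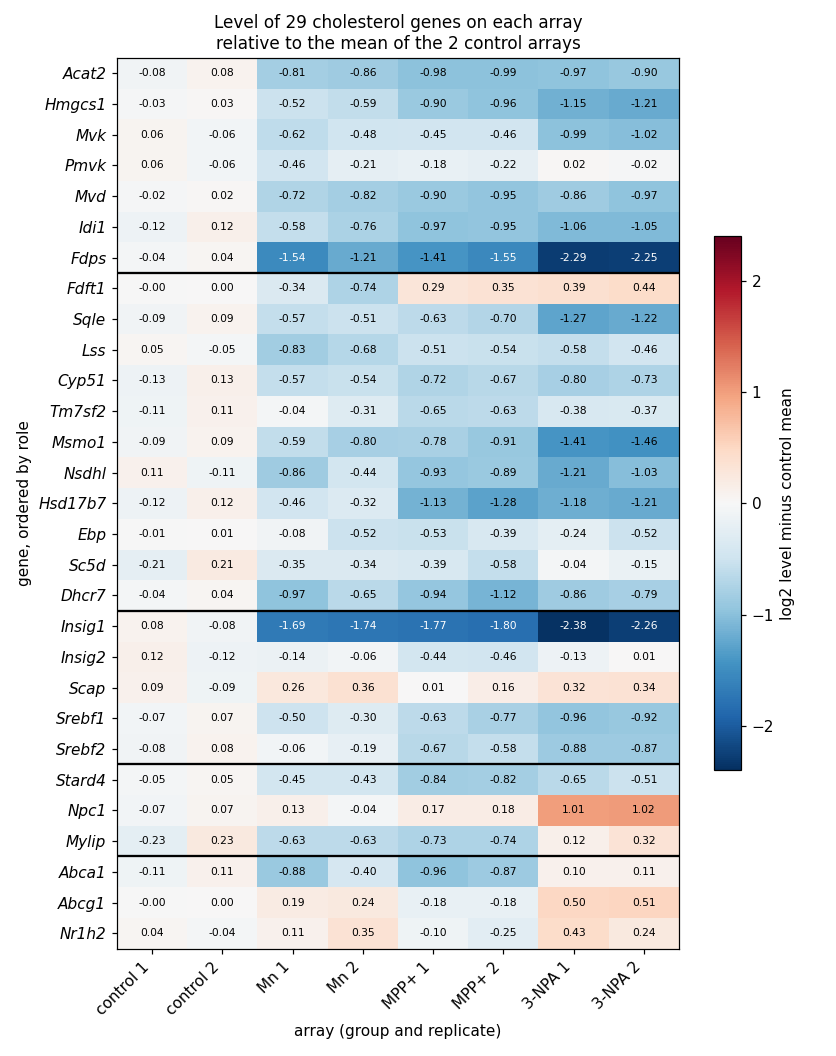
Level of each of the 29 genes on each of the 8 arrays, as log2 level minus the mean of the 2 control arrays of that gene; blue is lower and red higher than control, and black lines separate the roles (mevalonate part, squalene and sterol part, SREBP control, transport and uptake, efflux). The upper 2 blocks are blue on nearly all toxin arrays. Fdps in the mevalonate part and Insig1 in the SREBP control block are deepest, and Npc1 and Abcg1 are red on the 3-NPA arrays.

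By pattern over Mn, MPP+ and 3-NPA, 13 genes fell in all 3: Acat2, Cyp51, Dhcr7, Fdps, Hmgcs1, Idi1, Insig1, Lss, Msmo1, Mvd, Mvk, Sqle and Stard4. Hsd17b7, Nsdhl, Srebf1 and Srebf2 fell with MPP+ and 3-NPA and did not pass the test with Mn. Abca1, Insig2, Mylip and Tm7sf2 fell with MPP+ alone, and Abcg1 and Npc1 rose with 3-NPA alone. Ebp, Fdft1, Nr1h2, Pmvk, Sc5d and Scap did not pass in any comparison with control. A gene that passed in 1 toxin and not in another is not thereby shown to differ between them, and the differences between toxins are tested further on. Over 22 alternatives the Mn call was lost in 13 for Stard4, 11 each for Cyp51, Idi1 and Sqle, and 10 each for Hmgcs1 and Msmo1. For Mvk it was lost in 9 and for Dhcr7 in 8. For Acat2, Fdps, Insig1, Lss and Mvd it was lost in 1 each. On only the 4 arrays compared, fewer of all genes were called too: 0.0355% for Mn and 5.83% for MPP+. The main fit called 7.65% and 14% of all genes. The Mn count fell from 13 to 5 without either 3-NPA array, 6 without either MPP+ array, and 7 without Mn replicate 1 or control replicate 2, and limma on the 4 Mn and control arrays alone called 0 genes, with 17 at an unadjusted p below 0.05. The MPP+ count of 21 became 8 without MPP+ replicate 1, 7 without MPP+ replicate 2 and 12 on the 4 arrays compared. Without a 3-NPA array the 3-NPA count stayed at 18 and 19.

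In the mevalonate part, which runs from acetyl-CoA to farnesyl pyrophosphate, 6 of 7 genes fell with each toxin, with median log2 fold changes of -0.67 with Mn, -0.93 with MPP+ and -1.005 with 3-NPA. Fdps, which makes farnesyl pyrophosphate, stood at 5.15 and 5.24 in control, 3.66 and 3.98 with Mn, 3.79 and 3.64 with MPP+, and 2.91 and 2.94 with 3-NPA. Every toxin array lay below both controls, and the 3-NPA arrays lay below all others. Fdps fell by 2.59-fold with Mn (log2 -1.37 ± 0.13, adjusted p = 0.00445), 2.79-fold with MPP+ (-1.48 ± 0.13, 0.0027) and 4.82-fold with 3-NPA (-2.27 ± 0.13, 0.00021). The array holds a further Fdps probe, which gave -1.23 ± 0.12, -1.40 ± 0.12 and -2.00 ± 0.12. The files place the first probe on rn4 chromosome 2 at 181170192 to 181170336 and the other at 177242938 to 177242997, and RefSeq lists Fdps pseudogenes, so which copies each probe reads is uncertain.

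Hmgcs1, the cytosolic synthase that makes HMG-CoA, stood at 6.03 and 6.09 in control, 5.54 and 5.47 with Mn, 5.16 and 5.10 with MPP+, and 4.91 and 4.85 with 3-NPA. The 4 groups formed separate steps, with no overlap between any of them. Hmgcs1 fell by 1.47-fold with Mn (-0.56 ± 0.09, adjusted p = 0.018), 1.91-fold with MPP+ (-0.93 ± 0.09, 0.00306) and 2.26-fold with 3-NPA (-1.18 ± 0.09, 0.000432). Mvk, mevalonate kinase, stood at -0.10 and -0.22 in control, -0.78 and -0.64 with Mn, -0.61 and -0.61 with MPP+, and -1.15 and -1.18 with 3-NPA. The 3-NPA arrays were the lowest and the control arrays the highest. Mvk fell by 1.46-fold with Mn (-0.55 ± 0.09, adjusted p = 0.0251), 1.37-fold with MPP+ (-0.46 ± 0.09, 0.0289) and 2.01-fold with 3-NPA (-1.005 ± 0.093, 0.000855). Acat2, the cytosolic thiolase that opens the chain, is named Acat3 on the array, and its accession is Acat2 in RefSeq. Its arrays read 4.65 and 4.81 in control, 3.92 and 3.86 with Mn, 3.75 and 3.74 with MPP+, and 3.75 and 3.82 with 3-NPA. All toxin arrays lay within a narrow band below both controls. Acat2 fell by 1.78-fold, 1.98-fold and 1.91-fold with Mn, MPP+ and 3-NPA (-0.84 ± 0.09, -0.98 ± 0.09 and -0.94 ± 0.09, adjusted p = 0.00755, 0.00321 and 0.00106).

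Mvd, the decarboxylase that gives isopentenyl pyrophosphate, fell by 1.70-fold with Mn, 1.90-fold with MPP+ and 1.89-fold with 3-NPA. Idi1, the isomerase of that product, fell by 1.59-fold, 1.95-fold and 2.08-fold in the same order. Pmvk, the kinase between Mvk and Mvd, was the member of this part that passed in no comparison: its differences were -0.33 with Mn and -0.20 with MPP+, and its 3-NPA interval ran from -0.27 to 0.27. RefSeq also lists pseudogenes of Idi1, Nsdhl and Cyp51.

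In the squalene and sterol part 5 of 11 genes fell with Mn, 8 with MPP+ and 7 with 3-NPA, and none rose. Sqle, the epoxidase of squalene and a control point of the chain, stood at 4.59 and 4.78 in control, 4.12 and 4.18 with Mn, 4.05 and 3.99 with MPP+, and 3.42 and 3.47 with 3-NPA. The groups did not overlap, and 3-NPA was the lowest. Sqle fell by 1.45-fold with Mn (-0.54 ± 0.10, adjusted p = 0.0308), 1.59-fold with MPP+ (-0.67 ± 0.10, 0.0116) and 2.37-fold with 3-NPA (-1.24 ± 0.10, 0.000544). Msmo1, named Sc4mol on the array, is the oxidase that starts removal of the methyl groups at carbon 4 of the sterol, and read 5.95 and 6.13 in control, 5.45 and 5.24 with Mn, 5.26 and 5.13 with MPP+, and 4.62 and 4.58 with 3-NPA. Its Mn and MPP+ arrays overlapped, and its 3-NPA arrays lay below both. Msmo1 fell by 1.62-fold with Mn (-0.70 ± 0.12, adjusted p = 0.024), 1.80-fold with MPP+ (-0.84 ± 0.12, 0.00965) and 2.71-fold with 3-NPA (-1.44 ± 0.12, 0.000581).

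Hsd17b7 and Nsdhl act after Msmo1 on the same methyl groups. Hsd17b7 stood at 0.85 and 1.09 in control, 0.51 and 0.65 with Mn, -0.16 and -0.30 with MPP+, and -0.21 and -0.24 with 3-NPA. The Mn arrays lay between the controls and the other toxins. Hsd17b7 fell by 2.30-fold with MPP+ (-1.20 ± 0.12, adjusted p = 0.00354) and 2.29-fold with 3-NPA (-1.19 ± 0.12, 0.00106), and its Mn difference of -0.39 ± 0.12 did not pass (0.106). Nsdhl stood at -0.67 and -0.88 in control, -1.64 and -1.22 with Mn, -1.71 and -1.66 with MPP+, and -1.99 and -1.81 with 3-NPA. All toxin arrays lay below the controls, and the Mn arrays were the widest pair. Nsdhl fell by 1.88-fold with MPP+ (-0.91 ± 0.17, adjusted p = 0.0209) and 2.18-fold with 3-NPA (-1.12 ± 0.17, 0.0039), and its Mn difference of -0.65 ± 0.17 did not pass (0.0721).

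Lss, the cyclase that closes lanosterol, had a larger fold with Mn than with the other toxins, and its arrays read 2.76 and 2.67 in control, 1.89 and 2.03 with Mn, 2.20 and 2.17 with MPP+, and 2.14 and 2.26 with 3-NPA. The Mn arrays were the lowest, and the arrays of MPP+ and 3-NPA overlapped. Lss fell by 1.69-fold with Mn (-0.76 ± 0.10, adjusted p = 0.0118), 1.44-fold with MPP+ (-0.53 ± 0.10, 0.0231) and 1.43-fold with 3-NPA (-0.52 ± 0.10, 0.0096), and the 2 differences between Mn and another toxin did not pass. Cyp51, the demethylase of lanosterol, read 1.99 and 2.25 in control, 1.55 and 1.58 with Mn, 1.40 and 1.45 with MPP+, and 1.32 and 1.39 with 3-NPA. All toxin arrays were below the controls, with Mn highest among them. Cyp51 fell by 1.47-fold, 1.62-fold and 1.70-fold with Mn, MPP+ and 3-NPA (-0.55 ± 0.11, -0.69 ± 0.11 and -0.77 ± 0.11, adjusted p = 0.0403, 0.0145 and 0.00368). Dhcr7, the reductase of the last step of 1 branch, read 1.86 and 1.95 in control, 0.93 and 1.25 with Mn, 0.97 and 0.78 with MPP+, and 1.05 and 1.11 with 3-NPA. The Mn arrays overlapped those of both other toxins, and all lay below the controls. Dhcr7 fell by 1.76-fold, 2.04-fold and 1.77-fold (-0.81 ± 0.13, -1.03 ± 0.13 and -0.82 ± 0.13, adjusted p = 0.023, 0.00791 and 0.00554).

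The other 4 genes of this part passed rarely or not at all. Tm7sf2, a sterol reductase, fell by 1.56-fold with MPP+ (-0.64 ± 0.13) and did not pass with Mn (-0.17) or 3-NPA (-0.37). Ebp, an isomerase, and Sc5d, a desaturase named Sc5dl on the array, had negative differences with all toxins, from -0.30 to -0.46 and from -0.10 to -0.49, and passed with none. Fdft1, squalene synthase, was singled out after its values were seen: it stood at 3.70 and 3.71 in control, 3.36 and 2.97 with Mn, 3.997 and 4.06 with MPP+, and 4.10 and 4.14 with 3-NPA. The Mn arrays were below the controls and the arrays of the other toxins above them, which no other synthesis gene showed. None of its differences from control passed (-0.54 ± 0.14 with Mn, 0.32 ± 0.14 with MPP+, 0.41 ± 0.14 with 3-NPA, adjusted p = 0.0746, 0.176 and 0.0601).

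**Figure D2:**
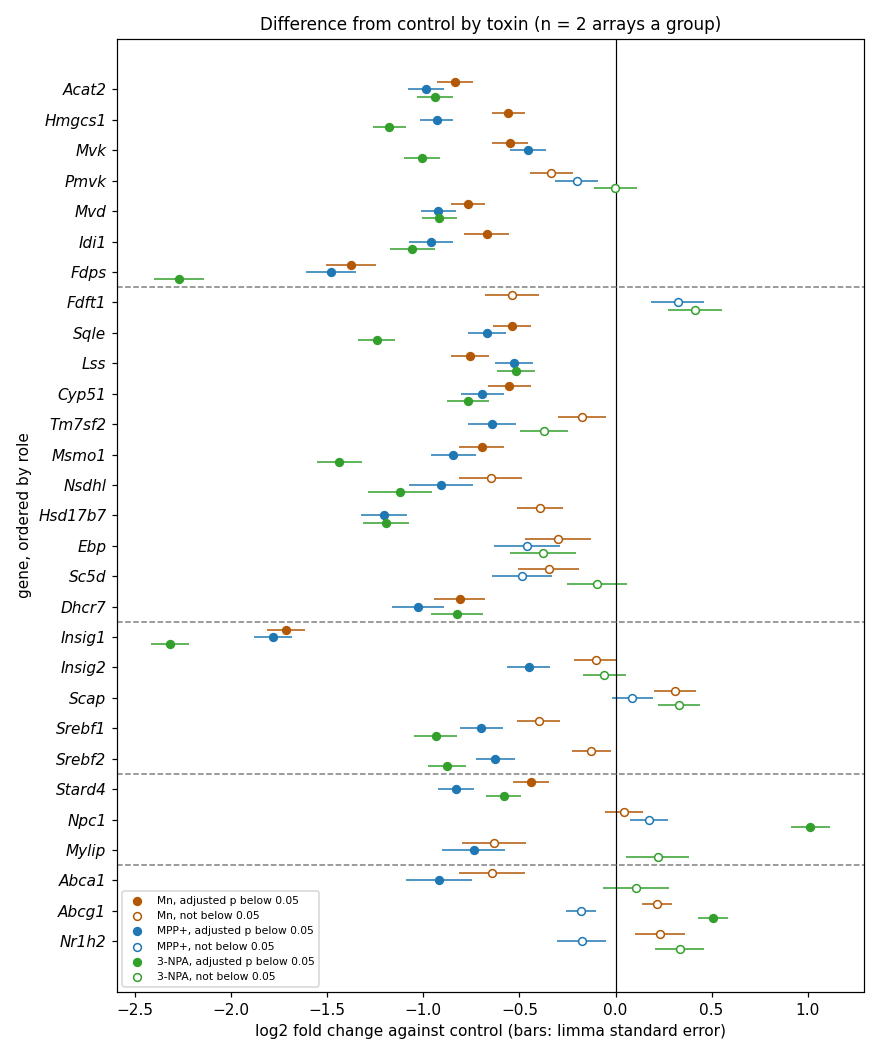
Log2 fold change of each gene against control for Mn (brown), MPP+ (blue) and 3-NPA (green), with bars for the limma standard error (n = 2 arrays a group); filled points had an adjusted p below 0.05, and dashed lines separate the roles. Most points of the synthesis genes lie between -0.3 and -1.5, Fdps and Insig1 reach -2.27 and -2.32 with 3-NPA, and Npc1 reaches 1.01.

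Of the 5 genes of SREBP control, 1 fell with Mn, 4 with MPP+ and 3 with 3-NPA. Insig1, which holds Scap in the endoplasmic reticulum and is itself a target of SREBPs, had the largest falls of the 29 genes in all 3 comparisons with control. Its arrays read 1.61 and 1.44 in control, -0.17 and -0.21 with Mn, -0.24 and -0.27 with MPP+, and -0.85 and -0.73 with 3-NPA. Every toxin array lay far below both controls, and the 3-NPA arrays were the lowest. Insig1 fell by 3.28-fold with Mn (-1.72 ± 0.10, adjusted p = 0.00206), 3.44-fold with MPP+ (-1.78 ± 0.10, 0.00101) and 4.99-fold with 3-NPA (-2.32 ± 0.10, 0.000119). Insig2, its paralog, is known to be less dependent on SREBPs. Its levels were -2.86 and -3.09 in control, -3.12 and -3.04 with Mn, -3.42 and -3.44 with MPP+, and -3.10 and -2.97 with 3-NPA. Only the MPP+ arrays stood clear of the controls. Insig2 fell by 1.37-fold with MPP+ (-0.45 ± 0.11, adjusted p = 0.0487), a call lost in 16 of 22 alternatives, among them the authors' deposited values, scaling by the median, the replicate number as a block and every left-out array except control replicate 2. Its differences with Mn (-0.10 ± 0.11) and 3-NPA (-0.06 ± 0.11) did not pass.

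Srebf2, the factor that mainly drives cholesterol synthesis, stood at 3.22 and 3.38 in control, 3.24 and 3.11 with Mn, 2.63 and 2.72 with MPP+, and 2.42 and 2.43 with 3-NPA. The Mn and control arrays overlapped, and the other groups lay below them. Srebf2 fell by 1.54-fold with MPP+ (-0.63 ± 0.10, adjusted p = 0.0145) and 1.83-fold with 3-NPA (-0.88 ± 0.10, 0.00164), and its Mn difference was -0.13 ± 0.10 (0.471). Srebf1, whose products also drive fatty acid synthesis, stood at 3.34 and 3.48 in control, 2.91 and 3.10 with Mn, 2.78 and 2.64 with MPP+, and 2.45 and 2.49 with 3-NPA. No toxin array reached the controls, and the 4 groups did not overlap. Srebf1 fell by 1.62-fold with MPP+ (-0.70 ± 0.11, adjusted p = 0.0144) and 1.91-fold with 3-NPA (-0.94 ± 0.11, 0.00189), and did not pass with Mn (-0.40 ± 0.11, 0.0893). Scap, the escort of the precursors, had differences of 0.31, 0.09 and 0.33 with Mn, MPP+ and 3-NPA, none of which passed.

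Since many of these genes moved together, their promoters were searched in RefSeq windows of 300 bases (250 before to 50 after the start, assembly GRCr8), which were found for 24 of the 29 genes, as 25 windows. The NF-Y box CCAAT, counted on either strand, was in 18 of the 25 windows (72%) and 12 of the 15 windows of synthesis genes. It was in 37.5% of 33469 windows of all genes. Those windows were not limited to genes measured above background here, as the 29 genes were. Whether that shapes the difference was not tested. The SREBP element TCACNCCAC, on either strand, was in 0 of the 25 and in 1.12% of all windows, and neither motif contains the other. With so low a share over all windows, 0 of 25 cannot tell whether these windows differ from others. Only this exact string was searched, so looser forms of the element were not counted. By pattern, a box was in the windows of 8 of 11 genes that fell with all toxins, 4 of 4 that fell with MPP+ and 3-NPA, 3 of 4 that fell with MPP+ alone, 0 of 1 that rose with 3-NPA and 2 of 4 that passed in none. A match describes letters only, and windows were not measured for binding. The stretches shown are from 5 genes that fell with all toxins and from Srebf2, which fell with MPP+ and 3-NPA. Each is from the gene's strand, 5′ to 3′, with the box in capitals (CCAAT, or ATTGG where it lies on the other strand).
Insig1, chr4:8057948-8057972, minus strand: ccctcctcccATTGGctcccgcggc
Hmgcs1, chr2:53382106-53382185, plus strand: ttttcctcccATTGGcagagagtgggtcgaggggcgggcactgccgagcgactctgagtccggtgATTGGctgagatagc
Fdps, chr2:176804887-176804956, minus strand: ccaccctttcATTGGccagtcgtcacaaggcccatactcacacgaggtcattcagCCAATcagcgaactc
Idi1, chr17:66547545-66547600, minus strand: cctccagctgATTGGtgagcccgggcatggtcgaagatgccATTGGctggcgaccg
Msmo1, chr16:29746930-29747059, plus strand: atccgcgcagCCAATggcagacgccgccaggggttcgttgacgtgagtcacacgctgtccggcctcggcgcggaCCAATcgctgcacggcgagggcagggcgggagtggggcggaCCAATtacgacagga
Srebf2, chr7:115543168-115543192, plus strand: tcgcgctccgATTGGctaatgcagg
The single boxes of Insig1 and Srebf2 begin at -193 and -129 from the start, those of Hmgcs1 at -188 and -133, of Fdps at -130 and -85, of Idi1 at -66 and -35, and of Msmo1 at -173, -109 and -68. The windows of Acat2, Cyp51 and Dhcr7, which also fell with all toxins, held no box.

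The 3 genes of transport and uptake went separate ways. Stard4, which carries cholesterol between membranes and is a known SREBP target, stood at 1.78 and 1.88 in control, 1.38 and 1.39 with Mn, 0.99 and 1.01 with MPP+, and 1.17 and 1.32 with 3-NPA. All toxin arrays lay below the controls. Stard4 fell by 1.36-fold with Mn (-0.44 ± 0.09, adjusted p = 0.0442), 1.78-fold with MPP+ (-0.83 ± 0.09, 0.00482) and 1.496-fold with 3-NPA (-0.58 ± 0.09, 0.00511), and its dimmer probe gave -0.78 ± 0.19 (0.0641, not passed), -1.02 ± 0.19 and -1.60 ± 0.19. Npc1, which moves cholesterol out of lysosomes, stood at 2.75 and 2.89 in control, 2.95 and 2.78 with Mn, 2.99 and 3.00 with MPP+, and 3.83 and 3.84 with 3-NPA. The 3-NPA arrays lay above all others, and the Mn and control arrays overlapped. Npc1 rose by 2.02-fold with 3-NPA (1.01 ± 0.10, adjusted p = 0.00101), and its second probe gave a smaller rise of 0.64 ± 0.09 (0.00402); with Mn (0.04 ± 0.10) and MPP+ (0.17 ± 0.10) it did not pass.

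Mylip, a ubiquitin ligase that limits lipoprotein uptake, stood at 0.90 and 1.36 in control, 0.50 and 0.50 with Mn, 0.40 and 0.39 with MPP+, and 1.25 and 1.45 with 3-NPA. The Mn and MPP+ arrays lay below the controls, and the 3-NPA arrays overlapped them. Mylip fell by 1.67-fold with MPP+ (-0.74 ± 0.17, adjusted p = 0.0367), and neither Mn (-0.63 ± 0.17, 0.0763) nor 3-NPA (0.22 ± 0.17, 0.336) passed. The MPP+ call was lost in 10 of 22 alternatives. A dimmer Mylip probe was not well above background on both control arrays; taking the dim arrays at the lowest signal well above background, it was at least 1.23-fold higher with 3-NPA than in control (fitted difference 1.40 ± 0.15, adjusted p = 0.00157, group means -4.30 and -5.70). The brighter probe does not show that rise. With MPP+ the dimmer probe, dim in control, gave -0.18 ± 0.15 and did not pass (adjusted p = 0.466).

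Of the 3 efflux genes none passed with Mn, 1 fell with MPP+ and 1 rose with 3-NPA. That is 0%, 33.3% and 33.3%, beside 7.65%, 14% and 38.3% of all genes called. The 3-NPA share was thus no higher than over all genes, and 3 genes are too few to compare shares. Abca1, which hands cholesterol to apolipoproteins, stood at -2.62 and -2.41 in control, -3.40 and -2.91 with Mn, -3.48 and -3.39 with MPP+, and -2.42 and -2.402 with 3-NPA. The MPP+ and Mn arrays lay below the controls, and the 3-NPA arrays were level with the higher control. Abca1 fell by 1.89-fold with MPP+ (-0.92 ± 0.17, adjusted p = 0.0229), and did not pass with Mn (-0.64 ± 0.17, 0.0817) or 3-NPA (0.11 ± 0.17, 0.657). Abcg1, which exports cholesterol to lipoprotein particles, stood at 1.84 and 1.84 in control, 2.03 and 2.08 with Mn, 1.66 and 1.67 with MPP+, and 2.34 and 2.36 with 3-NPA. The groups did not overlap, and 3-NPA was the highest. Abcg1 rose by 1.42-fold with 3-NPA (0.51 ± 0.08, adjusted p = 0.00476), and did not pass with Mn (0.21 ± 0.08, 0.159) or MPP+ (-0.18 ± 0.08, 0.183). Nr1h2, the liver X receptor beta, stood at 2.01 and 1.92 in control, 2.07 and 2.32 with Mn, 1.86 and 1.71 with MPP+, and 2.39 and 2.20 with 3-NPA. The Mn and 3-NPA arrays lay above the controls and the MPP+ arrays below. None of its differences from control passed (0.23, -0.18 and 0.33).

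**Figure D3:**
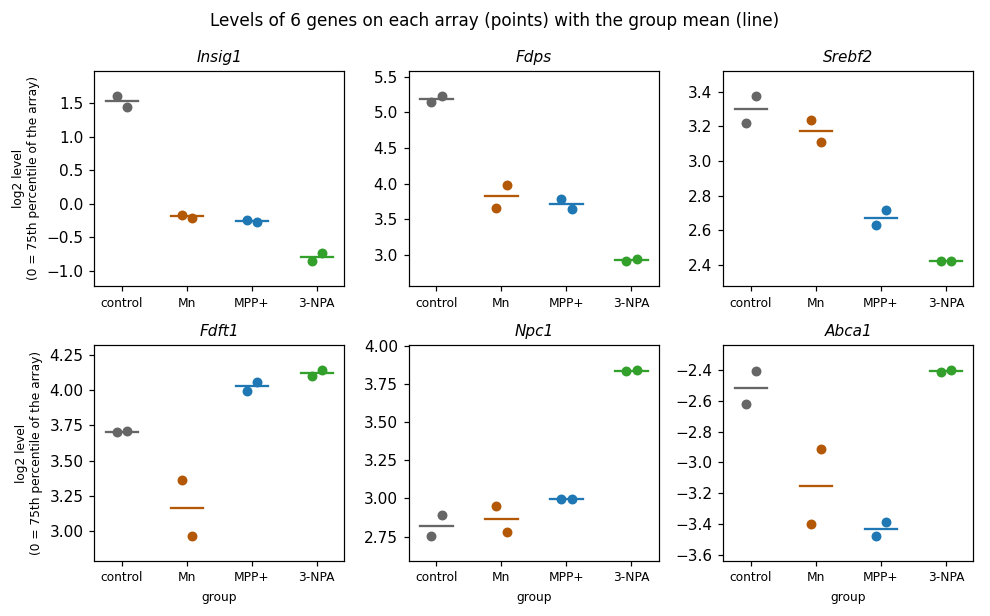
Level of Insig1, Fdps, Srebf2, Fdft1, Npc1 and Abca1 on each array (points, 2 a group) with the group mean (line), as log2 processed signal with 0 at the 75th percentile of the array; each panel has its own scale. Insig1 and Fdps are low in all toxin groups, Srebf2 is lower with MPP+ and 3-NPA, Fdft1 is low with Mn only, Npc1 is high with 3-NPA only, and Abca1 is low with Mn and MPP+. The differences of Fdft1 and Abca1 from control with Mn did not pass the test.

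The toxins were also compared with each other. MPP+ differed from Mn in 4 of the 29 genes, or 13.8%, not far above the 9.08% of all genes called (4.2% higher and 4.88% lower). Fdft1 was higher with MPP+ (0.86 ± 0.14, adjusted p = 0.0199). Hsd17b7 (-0.81 ± 0.12, 0.0158), Srebf2 (-0.50 ± 0.10, 0.0358) and Abcg1 (-0.39 ± 0.08, 0.0358) were lower. This count was 0 without either MPP+ array, 1 without either 3-NPA array and without Mn replicate 2, and 2 without Mn replicate 1. It was also 2 with the replicate number as a block.

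3-NPA differed from Mn in 14 of the 29 genes, with 5 higher and 9 lower. That is 48.3%, beside 28.6% of all genes called (16.9% higher and 11.7% lower). The 9 lower genes were Fdps (-0.90 ± 0.13, adjusted p = 0.0051), Hsd17b7 (-0.80 ± 0.12), Srebf2 (-0.75 ± 0.10), Msmo1 (-0.74 ± 0.12), Sqle (-0.71 ± 0.10), Hmgcs1 (-0.62 ± 0.09), Insig1 (-0.60 ± 0.10), Srebf1 (-0.54 ± 0.11) and Mvk (-0.46 ± 0.09). The 5 higher genes were Npc1 (0.97 ± 0.10, adjusted p = 0.0016), Fdft1 (0.95 ± 0.14), Mylip (0.85 ± 0.17), Abca1 (0.75 ± 0.17) and Abcg1 (0.29 ± 0.08). So 6 of the genes lower with 3-NPA make cholesterol, and 3 control SREBP activity. Without either 3-NPA array the count was 9.

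3-NPA differed from MPP+ in 11 of the 29 genes, with 6 higher and 5 lower. That is 37.9%, not far above the 31% of all genes called (18.1% higher and 12.9% lower). Fdps (-0.79 ± 0.13, adjusted p = 0.0075), Msmo1 (-0.59 ± 0.12), Sqle (-0.58 ± 0.10), Mvk (-0.55 ± 0.09) and Insig1 (-0.54 ± 0.10) were lower with 3-NPA. Abca1 (1.02 ± 0.17, 0.00793), Mylip (0.96 ± 0.17), Npc1 (0.84 ± 0.10), Abcg1 (0.69 ± 0.08), Nr1h2 (0.51 ± 0.13) and Insig2 (0.39 ± 0.11) were higher, which takes in all 3 efflux genes. Leaving out an array took this count to 2 without MPP+ replicate 1, 5 without MPP+ replicate 2, 5 without 3-NPA replicate 1 and 6 without 3-NPA replicate 2. Setting the median of each array to 0 in place of the 75th percentile moved the median of all genes in this comparison from 0.03 to -0.23 and the split to 4 higher and 8 lower. Under that scaling the split was 2 higher and 11 lower for 3-NPA against Mn, with the median of all genes moved from 0.06 to -0.16, and 1 higher and 1 lower for MPP+ against Mn. The differences of Nr1h2 and Insig2 from MPP+, of Abca1, Abcg1 and Mylip from Mn with 3-NPA, and of Abcg1 and Srebf2 between MPP+ and Mn did not pass under it, while the rises of Npc1 (0.87) and Abcg1 (0.36) over control with 3-NPA did.

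**Figure D4:**
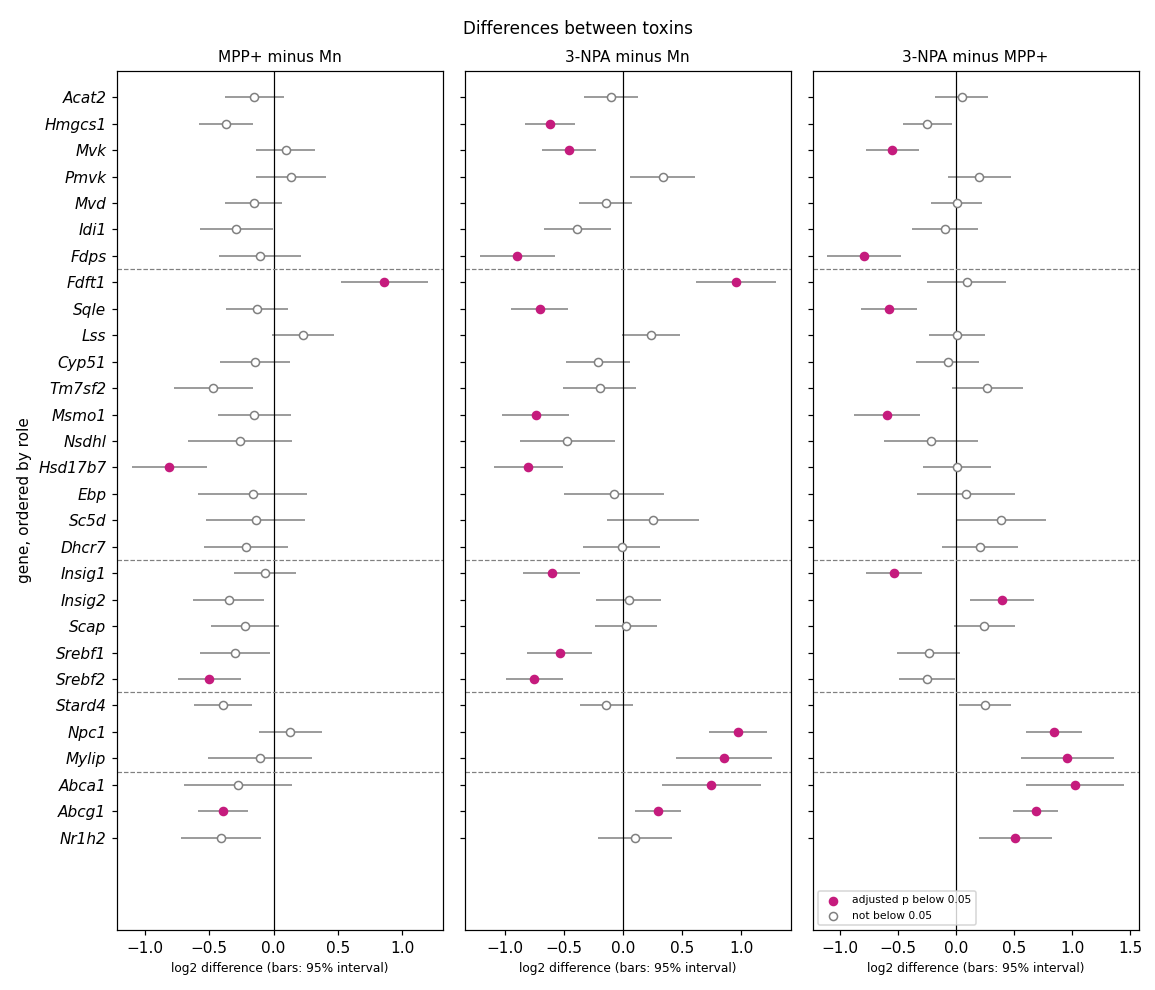
Difference between each pair of toxins for the 29 genes, in log2 units with 95% intervals; filled points had an adjusted p below 0.05, and dashed lines separate the roles. Fdft1 and Hsd17b7 stand apart in the MPP+ and Mn pair, and in both 3-NPA panels Npc1, Mylip, Abca1 and Abcg1 lie above 0 while Fdps, Sqle, Msmo1, Mvk and Insig1 lie below it.

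A further list held 32 genes of cholesterol handling, 27 of which were tested. Of these, 2 were lower and 0 higher with Mn, 6 lower and 0 higher with MPP+, and 10 lower and 7 higher with 3-NPA. That is 7.41%, 22.2% and 63% of the 27, beside 7.65%, 14% and 38.3% of all genes called. The Mn share was thus no higher than over all genes. The medians were -0.11, -0.01 and -0.11. Of the 7 called higher with 3-NPA, 2 were dim on both control arrays and their bounds show no rise. Lbr, a sterol reductase, read -2.99 and -4.17 in control and -4.75 and -4.99 with 3-NPA. Its fall with 3-NPA (-1.29 ± 0.36, adjusted p = 0.0337) leaned on control replicate 1: without that array it was -0.70 (adjusted p = 0.0264). The call was lost without any 1 of the 6 toxin arrays, with adjusted p up to 0.137. Cyp27a1, which makes an oxysterol, read -2.80 and -3.37 in control and -1.90 and -1.97 with 3-NPA. It rose with 3-NPA (1.15 ± 0.23, adjusted p = 0.0107), a call lost without 3-NPA replicate 1 (adjusted p = 0.0581). Lipa, the lysosomal lipase (0.89 ± 0.08), and Apoe, a carrier of lipid (1.02 ± 0.16), also rose with 3-NPA and were named after their values were seen.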

How the data were processed

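RNA of control, Mn, MPP+ and 3-NPA N27 cells was hybridised to 8 single-colour Agilent arrays, 2 a group. Per the file headers, the deposited intensity values came from Agilent Feature Extraction 11.5.1.1, were background-subtracted and were not normalized between arrays, with probes placed on rn4; 1 slide and 1 scan held every array. The deposited table of log2 values, on a scale close to the 75th percentile of each array, was used as an alternative; how the authors made it is not given in the sources used here.

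Flagged spots were left out, log2 processed signal was averaged over the spots of a probe, and the 75th percentile of each array was set to 0. Of 30367 probes, 30328 were used and 39 had every spot marked on an array. Probes had to be well above background (more than 0.5 of their spots) on both arrays of some group, which left 19460, and each of 16921 genes took its brightest probe. All 8 arrays entered 1 limma fit (limma 3.58.1, R 4.3.3) of group means with moderated variances (residual df 4, prior df 2.06), with Benjamini-Hochberg adjustment within each of 6 comparisons. An exact 2-sided permutation test of 2 against 2 arrays cannot go below 0.333, so none was used. The fit was tested on simulated data.

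Members and lists were chosen with earlier results of these data known. In each role, every array's values are given for the 4 genes (7 in the squalene and sterol part) with the smallest unadjusted p against control and for those with a called difference of at least 1 between toxins. Other genes of the pathway were named as the 3 called with the largest change in each direction. Some of the genes so chosen are not reported here. Bounds for dim probes use the lowest signal well above background of each array. Replicate numbers of the labels are not stated to pair arrays. Alternatives covered background correction, scaling, filters, variances, the arrays in the fit, the replicate block and leaving out each array.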

Additional observations from a re-analysis of the deposited data

Results flagged for a closer look

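The results that follow had, for 2 toxins, differences from control of opposite sign together with a called difference between those toxins in the limma fit (Benjamini-Hochberg adjusted). Each toxin was compared with the same control arrays. With 3-NPA against MPP+, Abca1 differed by 1.02 (adjusted p = 0.00793), Mylip by 0.96 (0.00858), Abcg1 by 0.69 (0.00216) and Nr1h2 by 0.51 (0.0291). With 3-NPA against Mn, Fdft1 differed by 0.95 (0.00511), Mylip by 0.85 (0.0132) and Abca1 by 0.75 (0.0233). With MPP+ against Mn, Fdft1 differed by 0.86 (0.0199) and Abcg1 by -0.39 (0.0358). The 2 arrays of a group lay on the same side of both arrays of the other group in each of these cases. Such separation held for 76.6%, 66.3% and 61.9% of all genes in these pairs, in the same order. The sign against control was itself called for few of these cases. Abca1 and Mylip (by its brighter probe only) were called lower with MPP+, and Abcg1 higher with 3-NPA. With the median of each array set to 0, Abca1 with 3-NPA was -0.04 against control, so its sign was no longer opposite. Under that scaling Nr1h2 (3-NPA against MPP+), Abca1 and Mylip (3-NPA against Mn) and Abcg1 (MPP+ against Mn) did not pass.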

How the results depend on the processing

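The signs of all called differences of the 29 genes held under every alternative run. Among the kept probes of these genes, signal over background limited the dimmer one of Mylip. The 3-NPA count of 19 called genes stayed between 18 and 23 in all of them, and between 18 and 21 when single arrays were left out. The Mn count of 13 was 17 with trend and robust variances. It was 16 each with another background correction, with no filter on dim probes and with the filter on all 8 arrays. Lower counts were 5 with array weights, 7 with the median of each array set to 0 and 5 with the 6 arrays of the first extraction run. With only the 4 arrays compared in limma the count was 0 (17 genes had an unadjusted p below 0.05 there). Leaving out single arrays gave 5 to 11, with 5 without either 3-NPA array, 6 without either MPP+ array, and 7 without Mn replicate 1 or control replicate 2. The MPP+ count of 21 was 12 with only the 4 arrays compared, 14 with median scaling, and 7 to 19 without single arrays. The count of 4 between MPP+ and Mn was 2 with median scaling, 1 with no filter on dim probes, 0 with only the 4 arrays compared (9 at an unadjusted p below 0.05), 1 with the 6 arrays of the first run, 7 with trend and robust variances, 7 with the filter on all 8 arrays, and 0 to 4 without single arrays (8 and 7 at an unadjusted p below 0.05 for the counts of 0, without MPP+ replicate 1 and 2). For 3-NPA against Mn (14) and against MPP+ (11), leaving out arrays gave 9 to 15 and 2 to 12. In fits with fewer arrays the residual degrees of freedom are fewer, and a lone array was assumed to vary like the other groups. On only the 4 arrays compared, limma called 0.0355% of all genes for Mn, 5.83% for MPP+ and 1.83% for MPP+ against Mn. The main fit called 7.65%, 14% and 9.08%. The cause of the other changes was not tested.

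With the replicate number as a block the counts were 12 for Mn, 19 for MPP+, 19 for 3-NPA, 2 for MPP+ against Mn, 13 for 3-NPA against Mn and 10 for 3-NPA against MPP+. Deviations of same-numbered arrays correlated at 0.50 between Mn and 3-NPA and between -0.02 and 0.10 for the other 5 pairs of groups, so the numbers were not taken to pair the arrays. Median scaling shifted the median of all genes with MPP+ from 0.02 to 0.13 and with 3-NPA from 0.05 to -0.09.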
